A study of Mus musculus with 2 samples.

Results

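The genes described here are 6 transcription factors that set the identity of skeletal muscle cells: the paired-box genes Pax7 and Pax3 and the myogenic regulatory factors Myf5, Myod1, Myog and Myf6. They were chosen by symbol out of 55536 annotated genes, and each symbol matched 1 gene identifier. The samples are gastrocnemius, a calf muscle, of 2 male B6CASTF1/J hybrid mice aged 4 days, from which total RNA was sequenced. The labels name no treatment. The labels call the samples biological replicates 1 and 2 of 1 group and number the animals separately, although both name the same donor record. With a single group, the comparisons possible were between the genes within a library and between the 2 libraries, and no exact sign-flip test was made, since with 2 values its smallest p is 0.5. Expected counts in annotated genes summed to 35281187 for replicate 1 and 32301531 for replicate 2, from 300 ng of RNA each. The tissue label was borne out by Acta1, the actin of skeletal muscle fibres, with 13742 and 12991 TPM in replicates 1 and 2 (TPM is a gene's length-scaled share of all transcripts), and by Ckm, muscle creatine kinase, with 5096 and 4534 TPM. Replicate 2 stood apart in epidermis markers, which summed to 9.60 TPM in replicate 1 and 746 TPM in replicate 2, and in Schwann cell markers, at 419 and 825 TPM.

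Pax3 founds the muscle progenitors of the embryo that migrate into the limb, and Pax7 marks and maintains satellite cells, the stem cells that lie beside muscle fibres. Myf5 and Myod1 commit progenitors to the myoblast fate, Myog drives myoblasts to differentiate and fuse, and Myf6, also called Mrf4, acts late and is the factor best kept in mature fibres. The 4 myogenic factors are basic helix-loop-helix proteins that pair with E proteins and bind the E-box, a short DNA motif. MEF2 proteins bind beside them at many muscle genes, Myog included.

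Promoters of Myog and Myf5 are shown, the only ones of the 4 myogenic factors with a sequence window. These genes also stood highest and lowest of the 4, but a link between motifs and level was not tested. Both windows are RefSeq sequence of build GRCm38.p6 and run from 250 bases before to 50 after the RefSeq start site. The Myog window is chr1:134289754-134290053 on the plus strand and the Myf5 window chr10:107486085-107486384 on the minus strand. Capitals mark matches to CANNTG (the E-box), to TANNNNTA with each N an A or a T (the core of a MEF2 site), or to TATAAA, searched on both strands, and no 2 matches overlapped.
Myog: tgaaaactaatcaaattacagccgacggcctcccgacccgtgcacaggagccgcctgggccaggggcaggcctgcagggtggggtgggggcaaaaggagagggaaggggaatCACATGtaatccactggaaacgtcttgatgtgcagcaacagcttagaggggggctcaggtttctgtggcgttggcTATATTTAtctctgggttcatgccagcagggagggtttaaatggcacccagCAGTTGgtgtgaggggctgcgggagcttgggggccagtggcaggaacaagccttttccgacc
Myf5: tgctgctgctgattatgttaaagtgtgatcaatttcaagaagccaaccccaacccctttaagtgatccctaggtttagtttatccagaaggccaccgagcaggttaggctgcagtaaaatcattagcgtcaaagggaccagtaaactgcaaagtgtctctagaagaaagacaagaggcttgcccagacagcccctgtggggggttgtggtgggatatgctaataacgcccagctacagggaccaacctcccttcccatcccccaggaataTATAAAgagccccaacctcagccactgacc
The Myog window held 2 E-boxes, from -138 to -133 and from -12 to -7, and 1 MEF2 core from -63 to -56, counted from the start site. The Myf5 window held no E-box, no MEF2 core and 1 TATAAA, from 21 to 26 after the start. Of 32851 windows of the same length, 72.3% held an E-box, 9.32% a MEF2 core and 13.6% TATAAA. RefSeq windows matched 3 of the 6 genes, and that of Pax7, chr4:139832919-139833218 on the minus strand, held none of these motifs. This window lies wholly downstream of 139833528, the annotated start of the main Pax7 transcript, ENSMUST00000030508.13. It therefore does not show the sequence before that start. Pax3, Myod1 and Myf6 are named only.

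The satellite cell gene Pax7 was present at a moderate level and Pax3 was close to absent. Pax7 (ENSMUSG00000028736.13, chr4:139737062-139833528, minus strand, mm10) stood at 9.08 TPM in replicate 1 and 7.59 in replicate 2, from 1271 and 951 expected counts. Both libraries placed it in the upper part of the 22028 protein-coding genes, above 69.3% of them in replicate 1 and 65.3% in replicate 2. Pax3 (ENSMUSG00000004872.15, chr1:78101267-78197134, minus strand) had 2 counts in replicate 1 and 7 in replicate 2, or 0.0200 and 0.0700 TPM. The 95% counting interval of the Pax3 level, which covers counting error only, was 0.00242 to 0.0722 TPM in replicate 1 and 0.0281 to 0.144 TPM in replicate 2. These intervals overlap, so a difference in Pax3 between the animals was not detectable at this depth. In whole tissue, fewer cells of a type and less RNA per cell cannot be told apart.

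The commitment factors Myf5 and Myod1 differed in level and in how alike the libraries were. Myf5 (ENSMUSG00000000435.1, chr10:107482908-107486134, minus strand) stood at 8.06 and 8.01 TPM in replicates 1 and 2, from 468 and 433 counts. Relative to its level this was the steadiest of the 6 genes, with a mean of 8.04 ± 0.0354 TPM (SD, n = 2). Myod1 (ENSMUSG00000009471.4, chr7:46376474-46379099, plus strand) had 31.2 TPM in replicate 1 and 19.1 in replicate 2, from 1608 and 917 counts, a mean of 25.1 ± 8.56 TPM. It ranked 2220th among protein-coding genes in replicate 1 and 3771st in replicate 2.

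The differentiation factor Myog and the late factor Myf6 were the highest. Myog (ENSMUSG00000026459.5, chr1:134289989-134292548, plus strand) stood at 89.5 TPM in replicate 1 and 77.2 in replicate 2, from 3655 and 2939 counts, and was the higher of the pair in both animals. Myf6 (ENSMUSG00000035923.4, chr10:107492853-107494737, minus strand) stood at 66.7 TPM in replicate 1 and 43.8 in replicate 2, from 2270 and 1390 counts. Both genes lay above 93.1% or more of protein-coding genes in each library. Myf6 lies 6718 bp upstream of Myf5 on the same strand, and these neighbours differed 8.27-fold in TPM in replicate 1 and 5.47-fold in replicate 2. No other annotated gene overlapped any of the 6, and within 10 kb of them, apart from Myf5 and Myf6 themselves, the annotation lists Gm44403, Gm24517 and Ppfia4. Gm44403, a microRNA gene near Myf5, and Gm24517, a small nuclear RNA gene near Myog, had 0 counts in both libraries, and Ppfia4, a gene of the liprin scaffold family near Myog, stood at 10.4 and 11.7 TPM.

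**Figure D1:**
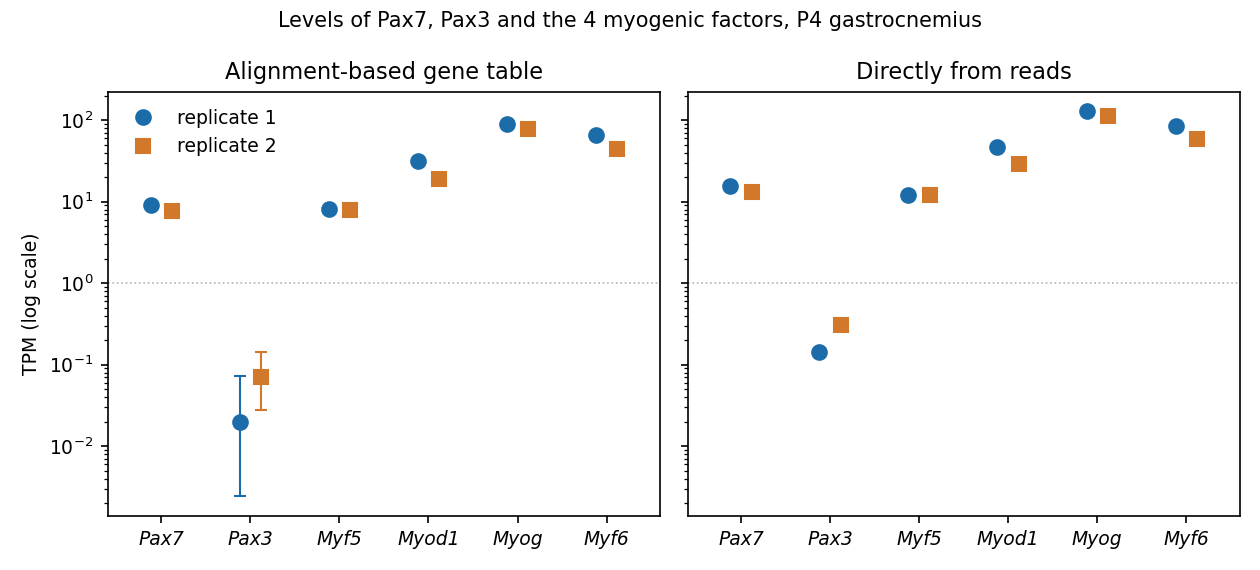
Level in TPM on a log scale of each gene, from stem cell factor to late factor, with 1 point per library, by the alignment-based gene table (left, bars are 95% counting intervals) and by the quantification made directly from reads (right, no intervals). Pax3 lies under the dotted line at 1 TPM in both panels, and Myog is highest in all 4 sets of points.

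The order of levels ran Myog, Myf6, Myod1, then Pax7 and Myf5 together, then Pax3. For 14 of the 15 pairs, the TPM range of 1 gene over both libraries did not overlap that of the other. The share among pairs of all genes was not computed, so this number describes the order only. The exception was Pax7 over Myf5, at 1.13-fold (95% counting interval 1.01 to 1.25) in replicate 1 and 0.948-fold (0.846 to 1.06) in replicate 2. Its mean log2 ratio was 0.05 ± 0.17, and with replicate 1 left out it turned to -0.077, so these neighbours in the order do not differ beyond their spread. The quantification made directly from reads put Pax7 above Myf5 in both libraries, at 15.7 and 13.3 TPM for Pax7 against 12.1 and 12.3 TPM for Myf5. In that quantification the order was otherwise the same, with Myog at 129 and 111 TPM, Myf6 at 85.4 and 58.7 TPM, Myod1 at 46.6 and 29.2 TPM and Pax3 at 0.143 and 0.304 TPM.

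Steps between the other neighbours exceeded the spread between the libraries. Myog over Myf6 had a log2 ratio of 0.62 ± 0.28, Myf6 over Myod1 one of 1.14 ± 0.07 and Myod1 over Pax7 one of 1.54 ± 0.32, on log2(TPM + 0.1). Myog exceeded Pax7 by 9.86-fold in replicate 1 and 10.2-fold in replicate 2, so the ratio of Myog to Pax7 was nearly the same in both animals. That of Myf6 to Pax7 was not, at 7.34-fold (counting interval 6.85 to 7.87) in replicate 1 and 5.77-fold (5.31 to 6.27) in replicate 2. Myf5 over Pax3 had a log2 ratio of 5.83 ± 0.36. This value rests on the few Pax3 counts and on the pseudocount, at 3.11 with a pseudocount of 1 and 7.36 with 0.01. Without division by length, Myod1 over Pax7 shrank to 0.14 and Pax7 over Myf5 grew to 1.29, since Pax7 has the longest transcripts of the 3 by effective length.

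As shares of the 4 myogenic factors, Myog made up 49.0% ± 4.48 of their summed TPM, Myf6 31.8% ± 3.21, Myod1 14.4% ± 2.18 and Myf5 4.77% ± 0.906 (SD, n = 2). The sum itself was 195 TPM in replicate 1 and 148 in replicate 2. Both differentiation-stage factors together thus outweighed both commitment factors in each library. The mix differed between the animals, with Myod1 at 15.96% and 12.9% and Myog at 45.8% and 52.1% in replicates 1 and 2.

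Ratios within a library need no scaling between libraries, and several had counting intervals that did not overlap between the animals. The share of all gene pairs of which this holds was not computed. The pairs use the same counts as the ratios between libraries given below and are not separate evidence. These intervals leave out the spread between animals, which 1 library each cannot give, and for single genes an interval clear of a ratio of 1 was common, at 36.2% of all genes. Myod1 over Myf5 was 3.87-fold (3.49 to 4.30) in replicate 1 and 2.38-fold (2.12 to 2.68) in replicate 2. Myf6 over Myf5 was 8.27-fold (7.48 to 9.15) and 5.47-fold (4.91 to 6.11). Both pairs place Myod1 and Myf6 higher against Myf5 in replicate 1. Myog over Myf6 went the other way, at 1.34-fold (1.27 to 1.42) in replicate 1 and 1.76-fold (1.65 to 1.88) in replicate 2. Myog over Myf5, at 11.1-fold (10.1 to 12.2) and 9.64-fold (8.72 to 10.7), and Myf6 over Myod1, at 2.14-fold (2.00 to 2.28) and 2.29-fold (2.11 to 2.50), had intervals that overlap.

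**Figure D2:**
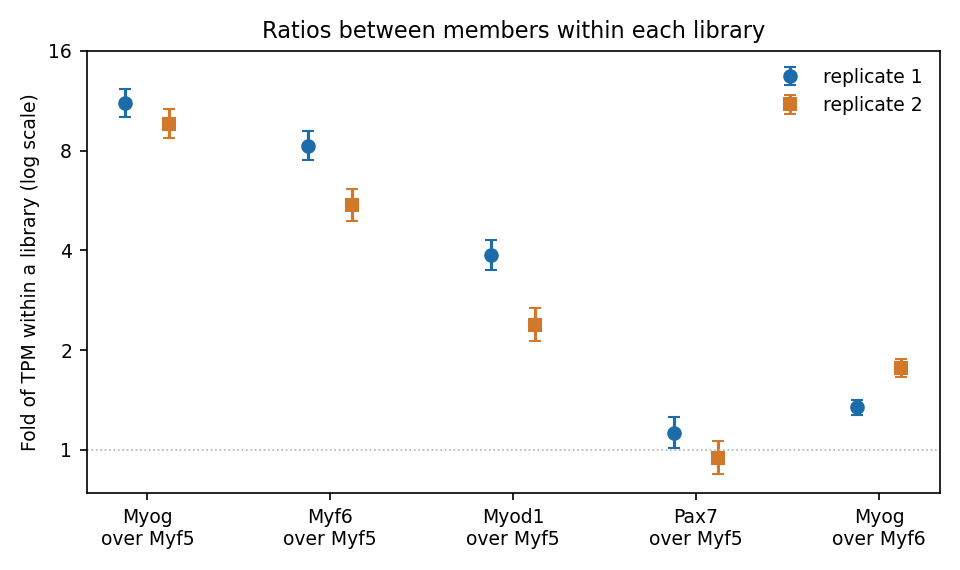
Fold of TPM between pairs of genes within each library, on a log scale, with 95% counting intervals as bars. Myod1 over Myf5 and Myf6 over Myf5 are higher in replicate 1, Myog over Myf6 is higher in replicate 2, and Pax7 over Myf5 lies close to 1 in both.

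Between the libraries, Myod1 and Myf6 stood well above the middle of all genes and Myf5 at the middle. Counts were scaled by TMM, edgeR's trimmed mean of log ratios. On this scale replicate 1 over replicate 2 was 1.66-fold for Myod1 (1.53 to 1.80) and 1.54-fold for Myf6 (1.44 to 1.65). It was 1.26-fold for Pax7 (1.16 to 1.37), 1.17-fold for Myog (1.12 to 1.23) and 1.02-fold for Myf5 (0.894 to 1.17). All 5 ratios lie above 1, but the Myf5 interval holds 1, and its log2 ratio turned to -0.02 with library totals and -0.05 with ERCC totals. Pax3 fell below the mean count of 10 asked for, with a ratio of 0.270 and a wide interval of 0.0273 to 1.42.

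Of the 5 genes that passed this filter, 2 exceeded 1.5-fold, both higher in replicate 1. Among all 17998 genes that passed it, 12.9% exceeded 1.5-fold in either direction, 3.63% were higher in replicate 1 and 9.27% higher in replicate 2. Low counts widen this background, and among 3267 genes with a mean count from 1000 to 3000, where Myod1 and Myf6 lie, 1.47% were past that fold, 0.306% higher in replicate 1 and 1.16% higher in replicate 2. Pax7 lies in that range too, and its log2 ratio of 0.34 was above the 95th percentile there, 0.28. Of all genes tested, 2.31% had a higher ratio than Myod1, 3.11% than Myf6, 9.68% than Pax7, 16.2% than Myog and 44.1% than Myf5. The counting interval left out a ratio of 1 for 4 of the 5 genes, beside the 36.2% of all genes. That share covers every mean count from 10 up, and intervals narrow as counts rise. It is therefore not a matched background for these 5 genes, and none is given. Scaled by library totals or by ERCC spike-in totals, Myf6 had log2 ratios of 0.58 and 0.55 and fell short of 1.5-fold, which left Myod1 alone past it. With 1 library per animal these ratios have no replicate check, and differences of animal, dissection and library cannot be told apart.

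**Figure D3:**
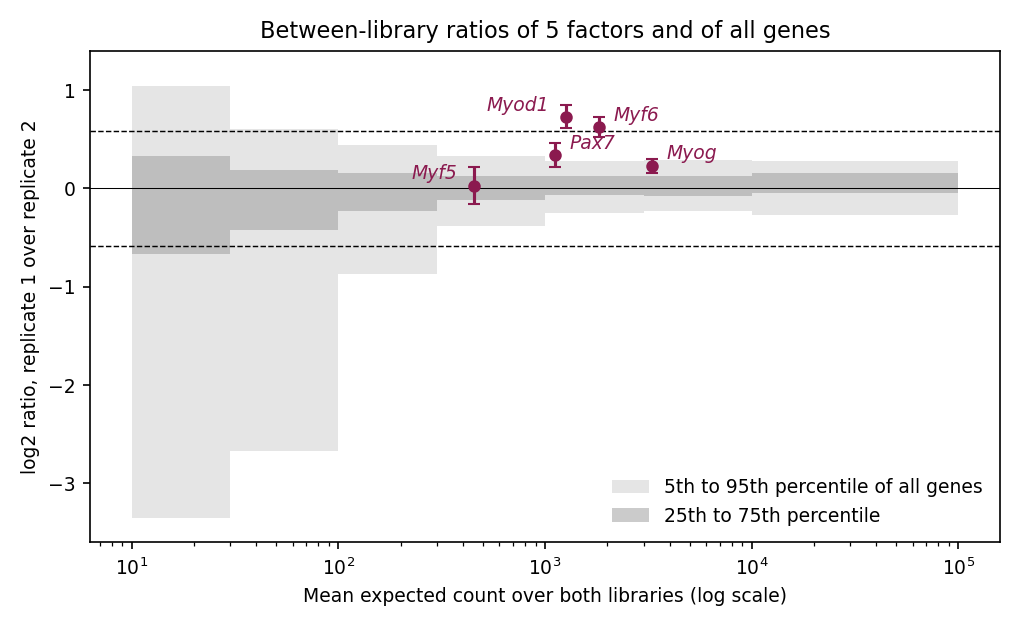
Log2 ratio of TMM-scaled counts, replicate 1 over replicate 2, against the mean expected count on a log scale. Light grey bands run from the 5th to the 95th percentile of all genes in each range of mean count and darker ones span the quartiles, points with bars the 5 well-counted genes and their 95% counting intervals, and dashed lines 1.5-fold; Myod1 and Myf6 lie above the upper dashed line and the light band, and Pax7 lies above the light band only.

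Of 8 early and late muscle genes, 2 were past 1.5-fold higher in replicate 1, beside 3.63% of all genes, and 0 were past it higher in replicate 2, beside 9.27%. Chrne, the adult subunit of the acetylcholine receptor, stood at 8.72 TPM in replicate 1 and 5.26 in replicate 2, a TMM-scaled ratio of 1.79 (1.49 to 2.16). Myh4, the myosin of the fastest adult fibres, stood at 823 and 503 TPM, a ratio of 1.66 (1.64 to 1.67), close to that of Myod1. Actc1, the cardiac actin that early skeletal muscle also uses, was lower in replicate 1, at 693 TPM against 1027 TPM in replicate 2, a ratio of 0.684 (0.674 to 0.695) that did not pass 1.5-fold. The embryonic myosin Myh3 and the fetal receptor subunit Chrng, named after their values were seen, were also lower in replicate 1. Their ratios were 0.816 (0.804 to 0.827) and 0.814 (0.724 to 0.914). The perinatal myosin Myh8, also a developmental form, went the other way, with a ratio of 1.10. General fibre genes moved less, with ratios of 1.14 for Ckm and 1.07 for Acta1. What part these differences have in the Myod1 and Myf6 ratios was not tested.

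Of 20 target genes of the factors, all at 1 TPM or more in both libraries, 1 was past 1.5-fold higher in replicate 1, namely Chrne, and 0 were past it the other way, beside 3.63% and 9.27% of all genes. Their median log2 ratio was 0.03, beside -0.01 over all genes tested. The highest of them were Acta1, Ckm and Actc1.

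The pairing partners were plentiful and nearly equal in the 2 libraries. The E proteins Tcf4, Tcf12 and Tcf3 had 94.4, 53.4 and 27.5 TPM in replicate 1 against 88.0, 54.1 and 27.1 TPM in replicate 2, with ratios from 0.978 to 1.03. Their sum was 175 and 169 TPM, beside 195 and 148 TPM for the 4 myogenic factors. Id proteins, which hold E proteins back from DNA, were lower, with Id3 at 24.2 and 22.0 TPM, Id1 at 12.0 and 12.5 TPM and Id2 at 9.76 and 10.3 TPM. Id4 had the ratio farthest from 1 among the 4 Id genes, at 0.751 (0.618 to 0.913). The MEF2 genes were led by Mef2c, at 238 and 232 TPM, then Mef2d at 71.0 and 60.0 TPM and Mef2a at 47.4 and 46.2 TPM. None of these 3 E proteins, 4 Id genes or 3 well-counted MEF2 genes was past 1.5-fold. That fold was passed by 12.9% of all genes and by 1.47% of those averaging 1000 to 3000 counts, so none past it is near the background.

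Genes listed as repressors or upstream factors of the myogenic genes were expressed at low to moderate levels. Of 15 listed as repressors and inhibitors, 14 reached 1 TPM in both libraries. Zbtb18 stood highest, at 41.2 and 38.1 TPM, and its listing does not show that it holds the factors back. Bhlhe40 stood at 33.8 and 28.7 TPM and Msc, a repressor also called MyoR, at 18.8 and 14.1 TPM. Msc and Hdac9, a histone deacetylase that binds MEF2, had the ratios farthest from 1, at 1.34 (1.19 to 1.497) and 1.33 (1.19 to 1.48). Of 15 upstream factors, 14 reached 1 TPM, among them Meox2 at 28.1 and 28.3 TPM and Eya4 at 18.8 and 18.3 TPM. Tbx1, a factor of head muscle, had a ratio of 0.781 (0.580 to 1.05). None of either list was past 1.5-fold, beside 12.9% of all genes and 1.47% of those averaging 1000 to 3000 counts. The median log2 ratios were 0.09 and 0.07.

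Satellite cell markers set beside Pax7 were alike between the libraries. All 15 reached 1 TPM. Past 1.5-fold were 0, beside 12.9% of all genes and 1.47% of those averaging 1000 to 3000 counts, so 0 of 15 is near the background. The median log2 ratio was 0.09, beside 0.34 for Pax7. The highest were Cd34 at 107 and 96.0 TPM, a marker that endothelial and stromal cells share, the laminin receptor Itga7 at 60.2 and 60.6 TPM, which fibres share, and the signalling inhibitor Spry1 at 30.2 and 28.7 TPM. The calcitonin receptor Calcr, a marker of quiescent satellite cells, stood at 1.66 and 1.31 TPM with the largest ratio of the list, 1.28 (1.01 to 1.64), followed by the chemokine receptor Cxcr4 at 1.19 (1.03 to 1.39). The 6 proliferation genes all had ratios below 1, with a median log2 ratio of -0.20, beside -0.01 over all genes tested. The share of all genes below 1 was not computed. Their ratios ran from 0.781 for Ccnb1 and 0.822 for Ccna2 to 0.951 for Pcna, whose interval of 0.885 to 1.02 holds 1. None was past 1.5-fold, beside the same background shares.

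**Figure D4:**
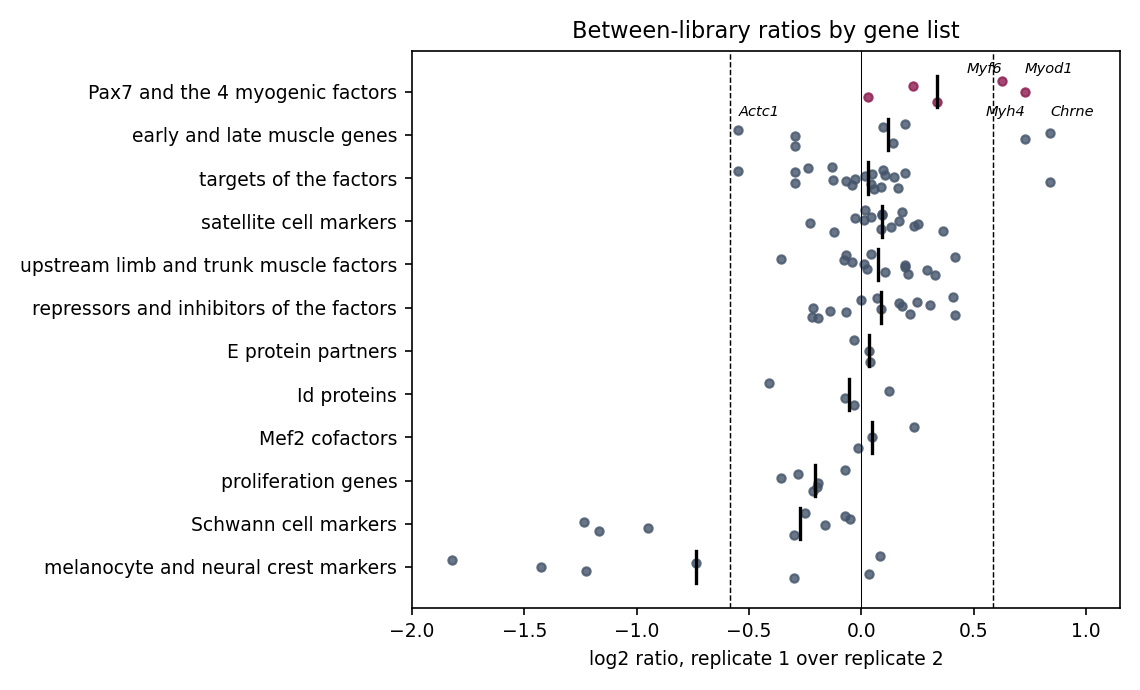
Log2 ratio of TMM-scaled counts, replicate 1 over replicate 2, for each gene averaging at least 10 counts in 12 gene lists, with a black bar at each list's median and dashed lines at 1.5-fold. Myod1, Myf6, Myh4 and Chrne lie right of the upper line, and markers of Schwann cells and melanocytes reach past the lower line; the other Pax genes and the epidermis markers are not drawn.

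The remaining Pax genes were near zero. Pax2, Pax4 and Pax8, named after their values were seen, had no count in either library, and a count of 0 allows up to 3 counts. Pax1, a factor of the axial skeleton, had 12 and 25 counts in replicates 1 and 2, a ratio of 0.453 (0.207 to 0.936) that was past 1.5-fold, Pax5, a factor of B cells, 15 and 16, and Pax6 1 and 1. All 7 lay under 1 TPM, and together they summed to 0.390 TPM in replicate 1 and 1.32 TPM in replicate 2, beside 9.08 and 7.59 TPM for Pax7. The largest part of the sum in replicate 2 was Pax5, at 0.800 TPM against 0.140 in replicate 1. Its counts were nearly equal, with a ratio of 0.885 (0.408 to 1.91), so its TPM difference is not one of counts.

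Pax3 also marks melanocytes and immature Schwann cells, and markers of other cells differed between the libraries beside it. Of 7 melanocyte and neural crest markers with enough counts, 4 were past 1.5-fold higher in replicate 2, beside 9.27% of all genes, among them Tyr with 6 and 20 counts and Tyrp1 with 28 and 71, and Mlana, named after its values were seen and with too few counts, had 0 and 8. The other 2 were Dct with 58 and 128 counts and Pmel with 89 and 140. Higher in replicate 2 by this fold were 27.8% of genes with a mean count from 10 to 30, where Tyr lies. For those from 30 to 100, where Tyrp1 and Dct lie, the share was 18.0%, and from 100 to 300, where Pmel lies, 7.79%. The ratios were 0.283 for Tyr, 0.372 for Tyrp1, 0.428 for Dct and 0.6003 for Pmel. All 4 log2 ratios stayed above the 5th percentile of all genes in their range of mean count. The summed level of the list was 16.5 TPM in replicate 1 and 21.8 in replicate 2, led by Sox10 at 5.59 and 6.60 TPM, Kit at 5.10 and 4.58 TPM and Mitf at 2.71 and 2.57 TPM. Of 8 Schwann cell markers 3 were higher in replicate 2 by that fold, among them the myelin gene Mbp at 85.4 and 204 TPM. Ncam1, which muscle shares, stood at 78.8 and 75.4 TPM. All 6 epidermis markers were higher in replicate 2, with Krt1 at 0.330 and 269 TPM, Krt10 at 3.33 and 282 TPM, Krtdap at 5.68 and 65.8 TPM and Krt14 at 0.0600 and 43.1 TPM. The part of such cells in the Pax3 counts was not tested.

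Pax7 was the one well-counted gene of the 6 with more than 1 annotated transcript. The longer, ENSMUST00000030508.13 of 5854 nt, held 76.5% of the gene's abundance in replicate 1 and 71.9% in replicate 2, and the shorter, ENSMUST00000174681.1 of 1725 nt, held 23.5% and 28.1%. The 2 transcripts share 8 coding exons unchanged and differ in 1, which is 129 nt long in the longer transcript (chr4:139828576-139828704) and 135 nt in the shorter (chr4:139828576-139828710). The longer transcript carries 3728 nt from the stop codon on, against 114 nt in the shorter. The alignment-based estimate gave the longer at 6.95 and 5.46 TPM in replicates 1 and 2, whereas the shorter stood at 2.13 TPM in both. The quantification made directly from reads gave the shorter a larger share, 33.6% in replicate 1 and 38.6% in replicate 2.

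**Figure D5:**
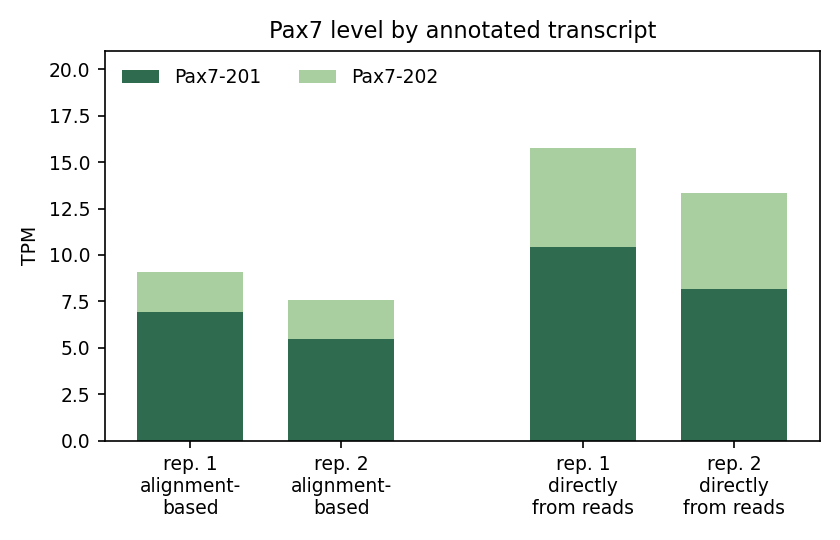
Pax7 level in TPM, split by annotated transcript (dark green the longer, light green the shorter), for each library and quantification. The longer transcript is the larger part of every bar, and the bars of the quantification made directly from reads are taller, at 15.7 and 13.3 TPM against 9.08 and 7.59 TPM.

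Pax3 has 3 annotated transcripts and too few counts for a split. The quantification made directly from reads gave Pax3 10.1 and 19.0 estimated counts in replicates 1 and 2, of which ENSMUST00000172555.1, annotated as a processed transcript, took 5.68 and 12.1. By the alignment-based table that transcript had 0 and 1.49 counts. Myf5, Myod1, Myog and Myf6 each have 1 annotated transcript of 3 exons, with lengths of 2083, 1861, 1495 and 1263 nt.

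The quantifications also disagreed in how many reads they gave each gene. The estimated count made directly from reads was 0.767 and 0.788 of the expected count for Myf6, 0.900 and 0.888 for Myog and 0.977 and 0.985 for Myod1 in replicates 1 and 2. It was 0.996 and 1.00 for Myf5 and 1.14 and 1.12 for Pax7. Among these 5 genes the values follow transcript length, but Pax3, at 5.04 and 2.72 from few counts, breaks that order. The median over protein-coding genes averaging at least 100 counts was 1.06 in both libraries, and 2.20% and 2.43% of them lay below Myf6. Replicate 1 over replicate 2 by these estimated counts was 1.65 for Myod1, 1.503 for Myf6, 1.28 for Pax7, 1.19 for Myog and 1.02 for Myf5. Pax3 passed the filter on counts here, with a ratio of 0.5002 (0.207 to 1.12), against 0.270 by expected counts. Thus 3 of 6 genes were past 1.5-fold, 2 higher in replicate 1 and 1 higher in replicate 2, beside 12.9% of all genes in either direction, 3.81% higher in replicate 1 and 9.05% higher in replicate 2.

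Genes with the likest levels were sought among 14711 protein-coding genes averaging at least 10 counts, by distance on log2(TPM + 0.1) over both libraries. With 2 libraries this matches a level and a ratio only. Nearest to Pax7 were Wfs1, Plekha2 and Fam189b, to Myf5 Ctnnbl1, Triap1 and Rpap1, and to Myog Btbd1, Mrpl51 and Obsl1. Within a distance of 0.1 lay 74 genes for Pax7, 168 for Myf5 and 17 for Myog, but 0 for Myod1 and 0 for Myf6. Nearest to Myod1 were Tfeb, at 29.7 and 21.04 TPM in replicates 1 and 2, Slc37a4 and Rilpl1. Among the nearest to Myf6 were Asb2, a ubiquitin ligase adaptor of muscle at 61.6 and 44.7 TPM, and Rsrp1.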

How the data were processed

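The authors deposited gene and transcript tables with an expected count and TPM, with the column names of RSEM output, per the file headers. A second deposited transcript table holds an estimated count and TPM, under names that kallisto writes, and, per the deposited notes, comes straight from the reads. The percent of a gene held by each transcript is the authors' deposited value. Per the deposited notes, mm10 with GENCODE M21 was used. The sources used here do not give the aligner, its version or whether strand was used. The deposited TPM of the gene table divides by the length minus 99 nt.

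Genes were found by symbol in the tables made directly from reads and joined by gene identifier. A further 26248 numbered entries, holding 4 and 6 counts, and the spike-ins were left out of library sizes. Ratios used expected counts scaled by TMM in edgeR 4.0.16 (R 4.3.3), a mean count of 10 or more, and a count of 0 set to 3. Scaling by DESeq2 1.42.0 size factors, library totals and ERCC totals, other filters, pseudocounts, quantifications and each library alone were the alternatives. Counting intervals are 95%, exact Clopper-Pearson for ratios of rounded counts and exact Poisson for levels, and cover counting error only, since reads carry no molecular identifiers in these files. The calculation was tested on simulated data. Named genes are the 6, and in each other list up to 3 of highest mean TPM and up to 2 of largest ratio; neighbours lie within 10 kb. A few genes that this rule names are not reported here. The genes, the 13 other lists and the alternatives were chosen with earlier results of these data known. Numpy, pandas and scipy did the remaining work.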

Additional observations from a re-analysis of the deposited data

How the results depend on the processing

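No paired analysis was possible because there is 1 group. Leaving out 1 library gave Pax7 over Myf5 from -0.077 to 0.17, Myog over Myf6 from 0.42 to 0.82, Myf6 over Myod1 from 1.09 to 1.19, Myod1 over Pax7 from 1.32 to 1.77 and Myf5 over Pax3 from 5.58 to 6.09, as log2 ratios. TPM made directly from reads gave 0.94 for Myf6 over Myod1, 0.25 for Pax7 over Myf5 and 5.29 for Myf5 over Pax3. Counts not divided by length gave 0.55, 1.29 and 6.87 for the same pairs and 0.14 for Myod1 over Pax7. Myf5 over Pax3 was 3.11 with a pseudocount of 1 and 7.36 with 0.01. The shifts with length and pseudocount follow from what is divided by or added, and the cause of those with the other quantification was not tested. Of the 6 genes, 2 were past 1.5-fold between libraries as reported and with DESeq2 size factors, but 1 with library totals and 1 with ERCC totals. The number was 3 with the other quantification and 3 with no filter on counts, where Pax3 joined. Of all genes, 2322 of 17998 (12.9%) were past 1.5-fold as reported. With the same filter, 2316 were past it with DESeq2 size factors, 2355 with library totals and 2439 with ERCC totals. The other quantification gave 2510 of 19523 (12.9%). With no filter on counts 8998 genes were past it, and 497 at a mean count of 100 or more. These filters change how many genes are tested, and no share was computed for either. Between libraries, Myog moved to 0.15 with ERCC totals; rescaling shifts all genes alike. Depth limits Pax3 most, with 2 and 7 counts.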

Other observations

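Of 3267 genes with a mean count from 1000 to 3000, 10 were over 1.5-fold higher in replicate 1 than in replicate 2, and Myod1 and Myf6 were 2 of them. The others, named after their values were seen, were Gm24497, Igfn1, Egr1, Ddit4l, Mpp3, Plac9b, Trip10 and Kcnc4. Igfn1, a sarcomere protein gene, had 2271 and 911 counts in replicates 1 and 2, a ratio of 2.35 (95% counting interval 2.18 to 2.54). The immediate early gene Egr1 had 1402 and 758 counts (1.75, 1.598 to 1.91), and Ddit4l, an inhibitor of mTOR signalling, 2986 and 1696 (1.66, 1.57 to 1.77). The potassium channel gene Kcnc4 had 1950 and 1211 counts (1.52, 1.41 to 1.63). The largest ratio was that of Gm24497, annotated as small nuclear RNA, at 2.78 (2.58 to 2.99).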
